A study of Mus musculus with 9 samples.

Results

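L-Myc and C-Myc were compared in the same kind of cell, mouse preSC, on 4 of the 9 arrays of the series. The 4 arrays were found by title: 2 of preSC transduced with a retrovirus for L-Myc and 2 of preSC transduced with a retrovirus for C-Myc. preSC are preneoplastic neuroendocrine cells from the lung, with the genotype Rb/p53/p130, on a mixed background of the mouse strains C57BL/6 and 129/Sv. All groups share that genotype, the lung origin, culture in RPMI1640 medium with bovine growth serum, and total RNA extracted with Trizol, and none received a drug. The other arrays are 3 of preSC without a Myc virus and 2 of preSC with a virus for N-Myc, and they are used here as reference points. On control probe sets, given last, the preSC arrays differed from every transduced array. In any comparison with preSC, an effect of a virus and one of labelling can therefore not be told apart. The labels give no promoter for the viruses, no species of the Myc sequence they carry, no number of parental lines or clones, and no empty-virus control. The molecule field names polyA RNA for the L-Myc and preSC arrays and total RNA for the C-Myc and N-Myc arrays, while the extraction text is the same for all, so a difference between the labelled molecules and a difference between L-Myc and C-Myc cannot be told apart.

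L-Myc (gene Mycl) and C-Myc (gene Myc) belong, with N-Myc (gene Mycn), to a family of basic helix-loop-helix leucine zipper transcription factors. Each pairs with MAX and binds the E-box, the palindrome CACGTG, in promoters of genes for ribosome production, translation, nucleotide synthesis and glycolysis. In small cell lung cancer, a neuroendocrine tumour that lacks RB and p53, 1 of the 3 family members is often amplified, and MYC and MYCL have been linked to different neuroendocrine states of the tumour cells.

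The values are log2 RMA values on Affymetrix mouse arrays, one step being a doubling, with 1 probe set standing for each of 12976 genes tested. Replicate numbers come from the titles. Replicates are described as biological in the design text, but the labels do not say which samples were separate cultures, so the spread between them may be in part technical.

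The 4 arrays did not fall into the 2 labelled pairs, and every difference below has to be read with that in view. L-Myc 2 and C-Myc 2 were at least 2-fold apart at only 17 genes (0.131% of those tested), fewer than any other pair with a different label. L-Myc 1 and C-Myc 1 were that far apart at 1537 genes (11.8%). Arrays with the same label differed almost as much: L-Myc 1 and L-Myc 2 at 1127 genes, and C-Myc 1 and C-Myc 2 at 1417 genes. The median absolute difference over genes was 0.11 between L-Myc 2 and C-Myc 2, against 0.13 between preSC 1 and preSC 2 and 0.15 between the N-Myc arrays. C-Myc 1 in turn lay next to the N-Myc arrays, from which it was 2-fold apart at 98 and 103 genes, while C-Myc 2 was 2-fold apart from them at 1399 and 1192.

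**Figure D1:**
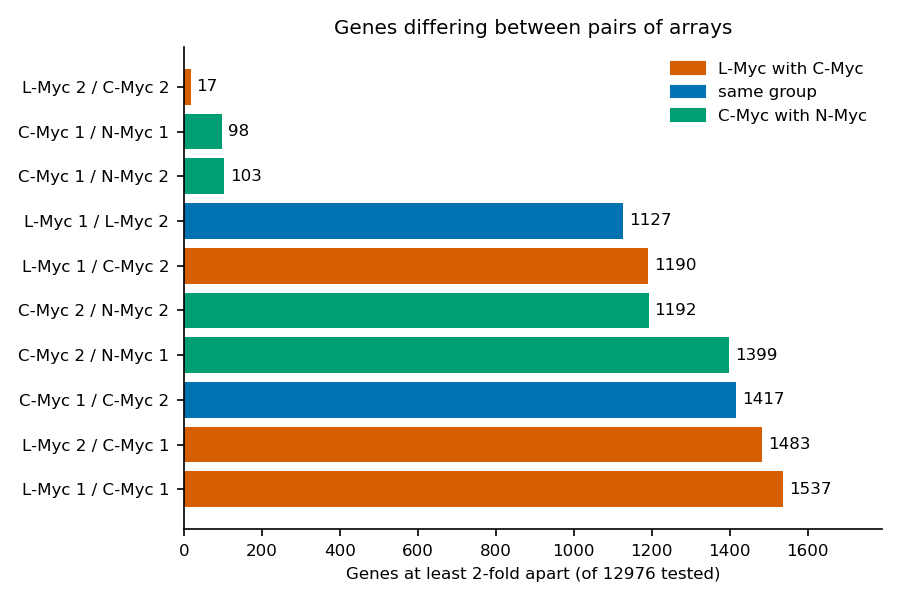
Bars give the number of genes, of 12976 tested, at least 2-fold apart between 2 arrays; orange is an L-Myc with a C-Myc array, blue the 2 arrays of L-Myc or of C-Myc and green a C-Myc with an N-Myc array; pairs within preSC and within N-Myc are not drawn. The shortest bar drawn, 17 genes, joins L-Myc 2 and C-Myc 2, and the longest, 1537 genes, joins L-Myc 1 and C-Myc 1.

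Over all tested genes, C-Myc 1 was nearer to the N-Myc mean than to C-Myc 2 at 9506 (73.3%), and L-Myc 2 was nearer to C-Myc 2 than to L-Myc 1 at 9657 (74.4%). The preSC arrays also differed among themselves, since preSC 1 and 2 were 2-fold apart at 4 genes and preSC 3 from them at 961 and 926. L-Myc 1 was 2-fold apart from preSC 1 at 1239 genes and from preSC 3 at 2412, whereas L-Myc 2 was so at 1843 and 1722. Whether arrays close to each other came from 1 parental line, or were handled together, was not tested.

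The first readout is the pair of genes that the viruses are labelled with, Myc and Mycl. Whether a probe set detects RNA of the virus or of the cell's own gene was not tested. Myc read 5.63 on L-Myc 1 and 7.29 on L-Myc 2, and 11.22 on C-Myc 1 and 10.68 on C-Myc 2. Both C-Myc arrays were far above both L-Myc arrays, and above the preSC arrays at 6.50, 6.82 and 8.13. The N-Myc arrays read 11.96 and 11.40, higher than the C-Myc arrays. The difference of means, L-Myc minus C-Myc, was -4.49 (SE 0.66, 95% interval -6.04 to -2.94), with -5.59 between the number 1 and -3.40 between the number 2 arrays.

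Mycl has 3 probe sets that did not give 1 answer. The second-brightest read 11.79 on L-Myc 1 and 12.74 on L-Myc 2, against 6.68 on C-Myc 1 and 8.52 on C-Myc 2 and 5.39 to 5.74 on the preSC arrays. By that probe set Mycl was higher in L-Myc by 4.67 (SE 0.55, 95% interval 3.39 to 5.95), and the groups did not overlap. The C-Myc arrays nevertheless lay above preSC on it, C-Myc 2 by more than C-Myc 1. The brightest probe set read 8.56 and 8.78 on the L-Myc arrays and 7.54 and 8.92 on the C-Myc arrays, and the dimmest 6.74 and 7.24 against 6.09 and 7.15. On these the groups overlapped. Where each probe set lies along the transcript was not analysed here.

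Mycn, the family member that neither virus is labelled with, also differed by probe set. The brightest read 12.92 and 13.33 in L-Myc and 13.54 and 13.08 in C-Myc, against 6.37 to 6.88 in preSC, with no separation of the groups. On it the N-Myc arrays, at 11.64 and 11.07, lay below all 4. The dimmest probe set read 6.24 and 6.08 in L-Myc and 5.83 and 5.79 in C-Myc, against 6.05 to 6.39 in preSC and 9.05 and 8.46 in N-Myc. What the brightest probe set detects in L-Myc and C-Myc arrays was not tested. The remaining probe set read 8.02 and 6.86 in L-Myc and 5.38 and 7.00 in C-Myc, which placed C-Myc 1 beside the N-Myc arrays at 5.62 and 5.47.

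Pvt1, a noncoding RNA gene that lies beside Myc, divided the C-Myc arrays. It read 13.11 on C-Myc 1 and 7.52 on C-Myc 2, and 5.67 and 6.29 on L-Myc 1 and 2, on the brightest of 5 probe sets. All 5 put C-Myc 1 far above the other 3 arrays and C-Myc 2 above both L-Myc arrays. C-Myc 1 was thus at the level of the N-Myc arrays, 13.58 and 13.63, and C-Myc 2 only a little above the highest preSC array, 6.69. Max, the gene for the common partner, was 7.40 and 7.45 in L-Myc and 8.24 and 7.64 in C-Myc, a difference of -0.52 (SE 0.21) that C-Myc 1 carried more than C-Myc 2.

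Rb1 and Rbl2, whose products Rb and p130 the genotype names, still gave signal: Rb1 read 11.59 and 10.87 in L-Myc and 10.49 and 10.73 in C-Myc. Rbl2 read 8.20 and 7.99 in L-Myc and 7.43 and 7.90 in C-Myc. Neither passed the test, and whether these probe sets lie in a deleted part was not analysed here.

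Across the genes, no difference between L-Myc and C-Myc passed the test. In a limma fit of all 9 arrays, 0 of 12976 genes (0.0%) had an adjusted p under 0.05, in either direction, and the smallest adjusted p, which Myc itself shared, was 0.83. At an unadjusted p under 0.05 there were 602 genes (4.64%), and a fit of all probe sets gave 0 as well. This is a statement about precision, not about likeness: the median SE was 0.21 and the median 95% interval reached 0.50 to either side. At a typical gene, smaller shifts than that could not be told from 0 even before adjustment. Group means were at least 2-fold apart at 360 genes (2.77%). The 4 arrays did not overlap at 1683 genes with L-Myc higher (13.0%) and 1697 with L-Myc lower (13.1%). Even the smallest p that an exact two-sided permutation of 2 arrays against 2 can give is 0.333.

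One array decided this count. Without C-Myc 2, 625 genes passed, 360 higher and 265 lower in L-Myc. Leaving out 1 array leaves its group with a single one, which is then assumed to vary like the arrays of the other groups, so these calls and p-values include no spread between C-Myc arrays. Those lower in L-Myc then included Myc (a difference of -4.76), Pvt1, Max, the ribosome and polymerase genes Heatr1, Polr1b and Polr3g, and the metabolic genes Dctd, Hk2 and Aldoa. Klhl41, Vgf, Ptchd4 and Itga6, which belong to none of these groups, were among them too. Those higher included Dll3, E2f2, Npas3, Crtac1, Cyb5r2, Spdya and AI467606, and also Ctsz, Ifit2, Psmb8 and Cartpt. The names given are a part of the genes named in this report and do not summarise the 625. Without L-Myc 2, AI467606 and Cdh11 passed, and without L-Myc 1 or without C-Myc 1 no gene did. What is left without C-Myc 2 is a comparison of the L-Myc arrays with C-Myc 1, the array that lay next to N-Myc.

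**Figure D2:**
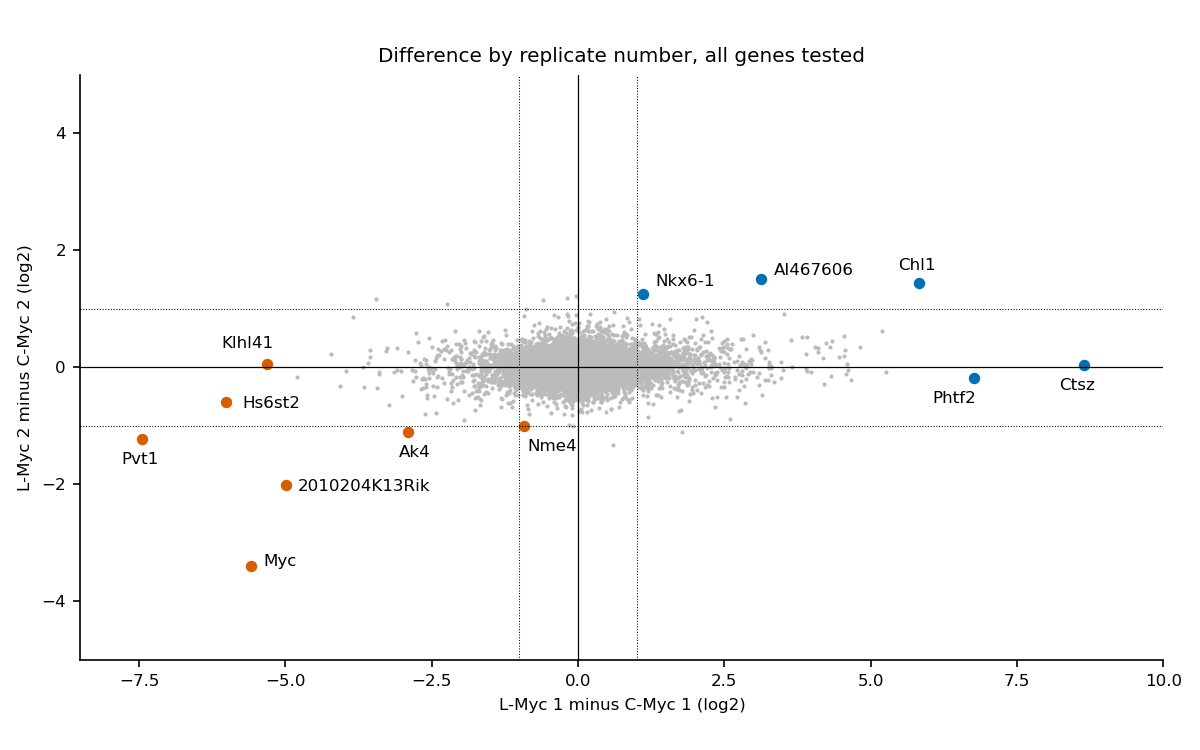
Each point is 1 of 12976 genes, placed by L-Myc 1 minus C-Myc 1 on the horizontal axis and L-Myc 2 minus C-Myc 2 on the vertical axis (both log2); dotted lines mark 2-fold, and coloured points are named genes, blue where L-Myc 1 was the higher and orange where it was the lower. The cloud is wide along the horizontal axis and narrow along the vertical one, with 7 genes beyond 2-fold in the same direction on both.

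Since the numbers disagreed so widely, the genes that stood apart in both are described next. They were chosen by these values after the values were seen, so they get a description and no test. Only 7 genes were at least 2-fold apart in the same direction on the number 1 and on the number 2 arrays. Myc, 2010204K13Rik, Ak4 and Pvt1 were lower in L-Myc (4 genes, 0.0308%), and Nkx6-1, AI467606 and Chl1 were higher (3 genes, 0.0231%).

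2010204K13Rik, an uncharacterised gene, read 5.32 and 6.59 in L-Myc and 10.32 and 8.60 in C-Myc, with preSC at 5.87 to 6.12 and N-Myc at 9.62 and 9.59. It was the closest to Myc in pattern, near the preSC level in L-Myc and well above it in C-Myc, and its difference was -3.50 (SE 0.57). Ak4, a mitochondrial adenylate kinase, read 4.41 and 7.48 in L-Myc and 7.32 and 8.58 in C-Myc. Its L-Myc 2 value lay above its C-Myc 1 value, so the groups overlapped, and preSC 3 at 8.30 was as high as C-Myc 2.

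AI467606 read 8.03 and 6.65 in L-Myc, 4.90 and 5.14 in C-Myc, and 10.17 to 10.34 in preSC. Both viruses went with lower values than preSC, C-Myc with the lower ones, and N-Myc at 4.61 and 4.73 lay on the C-Myc side. The difference of L-Myc and C-Myc was 2.32 (SE 0.39), and the second of its probe sets kept the order with 6.97 and 5.68 against 4.47 and 4.53. Chl1, a neural cell adhesion molecule of the L1 family, read 9.63 and 5.50 in L-Myc and 3.80 and 4.07 in C-Myc. The L-Myc arrays were far apart from each other, but both lay above both C-Myc arrays. Nkx6-1, a homeodomain factor of neural and endocrine precursors, read 6.38 and 7.53 in L-Myc, 5.26 and 6.29 in C-Myc and 5.03 to 5.50 in preSC. Both L-Myc arrays were above preSC, and C-Myc 1 was within its range.

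At a 1.5-fold limit, 22 genes were lower in L-Myc in both numbers (0.17% of those tested) and 25 were higher (0.193%). The genes that just reached the limit had a smaller difference of 0.59 in both sets. The arrays of the groups did not overlap for 15 of the 22 and 16 of the 25. Over all genes tested, 13.1% were lower and 13.0% higher in L-Myc without overlap. Both N-Myc arrays lay on the C-Myc side for 18 of the 22 and 19 of the 25, a count not made over all genes. These genes were picked for a difference between L-Myc and C-Myc, and C-Myc 1 lay next to N-Myc. Both counts therefore follow in part from that choice.

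Where the 22 and 25 genes stood against preSC differed. Of the 25 higher in L-Myc, the preSC mean lay beyond the L-Myc mean for 14, between the group means for 9 and beyond the C-Myc mean for 2. At AI467606, Cyb5r2 and Chl1, for example, L-Myc arrays were the nearer to preSC. Of the 22 lower in L-Myc, preSC lay beyond L-Myc for 9, between for 9 and beyond C-Myc for 4.

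Of the 22, some were set apart by a low L-Myc 1 and others by a high C-Myc 1. Eif1a, which encodes an initiation factor that positions the small ribosomal subunit, read 9.43 and 10.35 in L-Myc and 11.19 and 11.08 in C-Myc, a difference of -1.25 (SE 0.33). Its second probe set gave -1.71 on the number 1 and -0.38 on the number 2 arrays, the latter short of 1.5-fold. Nme4, a mitochondrial nucleoside diphosphate kinase, read 7.29 and 7.77 against 8.22 and 8.78, with close to the same difference in both numbers. Mtm1, a phosphoinositide phosphatase, read 10.03 and 11.54 against 12.16 and 12.15. Ptger4, a prostaglandin receptor, read 4.89 and 6.67 against 6.84 and 7.56. For Eif1a, Mtm1 and Ptger4 the L-Myc arrays were farther apart than the C-Myc arrays, with SDs of 0.65, 1.07 and 1.26 (n = 2) against 0.077, 0.0051 and 0.51. All 4 genes were lowest in preSC, then L-Myc, then C-Myc when group means are compared. Ptchd4 read 5.77 and 5.85 against 8.20 and 6.63, and Smpdl3b, a lipid phosphodiesterase of the cell surface, 5.77 and 5.90 against 8.38 and 6.70. For these the L-Myc arrays nearly coincided and C-Myc 1 was the high one.

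Of the 25 higher in L-Myc, Ppp3cc, a catalytic subunit of calcineurin, had the most even pair of differences, 0.83 and 0.84. It read 7.48 and 7.43 in L-Myc and 6.65 and 6.59 in C-Myc, with preSC at 6.67 to 6.94, although its second-brightest probe set gave a difference of -0.14. Spdya, an activator of cyclin-dependent kinases, read 7.15 and 7.03 against 6.11 and 6.20, and Cyb5r2, a cytochrome b5 reductase, 7.72 and 7.53 against 6.45 and 6.79. Npas3, a neuronal basic helix-loop-helix factor, read 6.89 and 6.73 against 4.78 and 5.88. Crtac1, a secreted matrix protein, read 7.69 and 7.06 against 5.68 and 6.23. Their standard errors ran from 0.14 for Ppp3cc to 0.38 for Npas3, the differences from 0.84 to 1.48, and none had an adjusted p under 0.83 in limma.

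The E-box that the MYC family binds was looked for as the letters CACGTG, which read the same on both strands, in RefSeq promoter windows of 300 bases, 250 before to 50 after the start (build GRCm38.p6). Of the tested genes, 10442 had a window and 1196 of those (11.5%) held the letters in at least 1. Of the 22 genes lower in L-Myc in both numbers, 13 had a window and 5 (38.5%) held them. For the 25 higher genes it was 2 of 22 (9.09%), and for the ribosome biogenesis genes described next 16 of 77 (20.8%). Over all 32851 windows searched the share was 7.15%. Windows of 1 chromosome were left out of the search, so its genes count here as having no window. These are counts of letters in small sets, chosen in part by their values, and no binding was measured.

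The 250 bases before the start are printed, with the E-box in capitals, for Ak4, Mtm1, Nol11 and Utp18. Ak4 and Mtm1 were lower in L-Myc in both numbers at the 1.5-fold limit. Nol11 and Utp18, with an E-box close to the start, were taken from ribosome biogenesis genes lower in L-Myc in both numbers by any amount. Counted from the start, the letters begin at -214 for Ak4, -98 for Mtm1, -43 for Nol11 and -20 for Utp18. Ak4 is at chr4:101419453-101419702 on the plus strand, Mtm1 at chrX:71214756-71215005 on the plus strand, Nol11 at chr11:107189382-107189631 on the minus strand and Utp18 at chr11:93885767-93886016 on the minus strand, each sequence running 5′ to 3′ along its gene.
Ak4: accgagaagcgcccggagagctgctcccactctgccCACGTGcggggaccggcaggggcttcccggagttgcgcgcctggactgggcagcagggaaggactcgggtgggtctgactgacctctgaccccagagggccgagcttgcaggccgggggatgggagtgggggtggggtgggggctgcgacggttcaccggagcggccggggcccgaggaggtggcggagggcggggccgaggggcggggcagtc
Mtm1: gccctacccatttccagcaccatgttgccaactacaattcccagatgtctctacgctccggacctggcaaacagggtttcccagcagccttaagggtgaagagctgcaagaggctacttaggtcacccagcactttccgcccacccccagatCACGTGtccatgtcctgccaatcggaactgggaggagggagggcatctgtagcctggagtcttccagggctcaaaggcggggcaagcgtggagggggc
Nol11: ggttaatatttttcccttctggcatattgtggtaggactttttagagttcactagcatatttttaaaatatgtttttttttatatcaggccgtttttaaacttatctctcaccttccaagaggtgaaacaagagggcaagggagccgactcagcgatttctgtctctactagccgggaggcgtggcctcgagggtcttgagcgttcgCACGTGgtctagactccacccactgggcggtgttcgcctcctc
Utp18: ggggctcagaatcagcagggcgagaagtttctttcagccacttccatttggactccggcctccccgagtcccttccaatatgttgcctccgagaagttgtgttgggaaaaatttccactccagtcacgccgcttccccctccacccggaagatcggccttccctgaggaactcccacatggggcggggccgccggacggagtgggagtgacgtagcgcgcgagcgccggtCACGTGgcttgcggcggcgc
Nol11, a subunit of the small-subunit processome, read 9.47 and 10.14 in L-Myc and 10.14 and 10.26 in C-Myc. Utp18, of the same complex, read 10.50 and 11.29 against 11.14 and 11.38. L-Myc 1 was the low array at both genes, and the number 2 arrays differed by only -0.12 and -0.09. Nol11 and Utp18 were chosen after their values were seen, so their lower values in L-Myc follow from that choice.

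**Figure D3:**
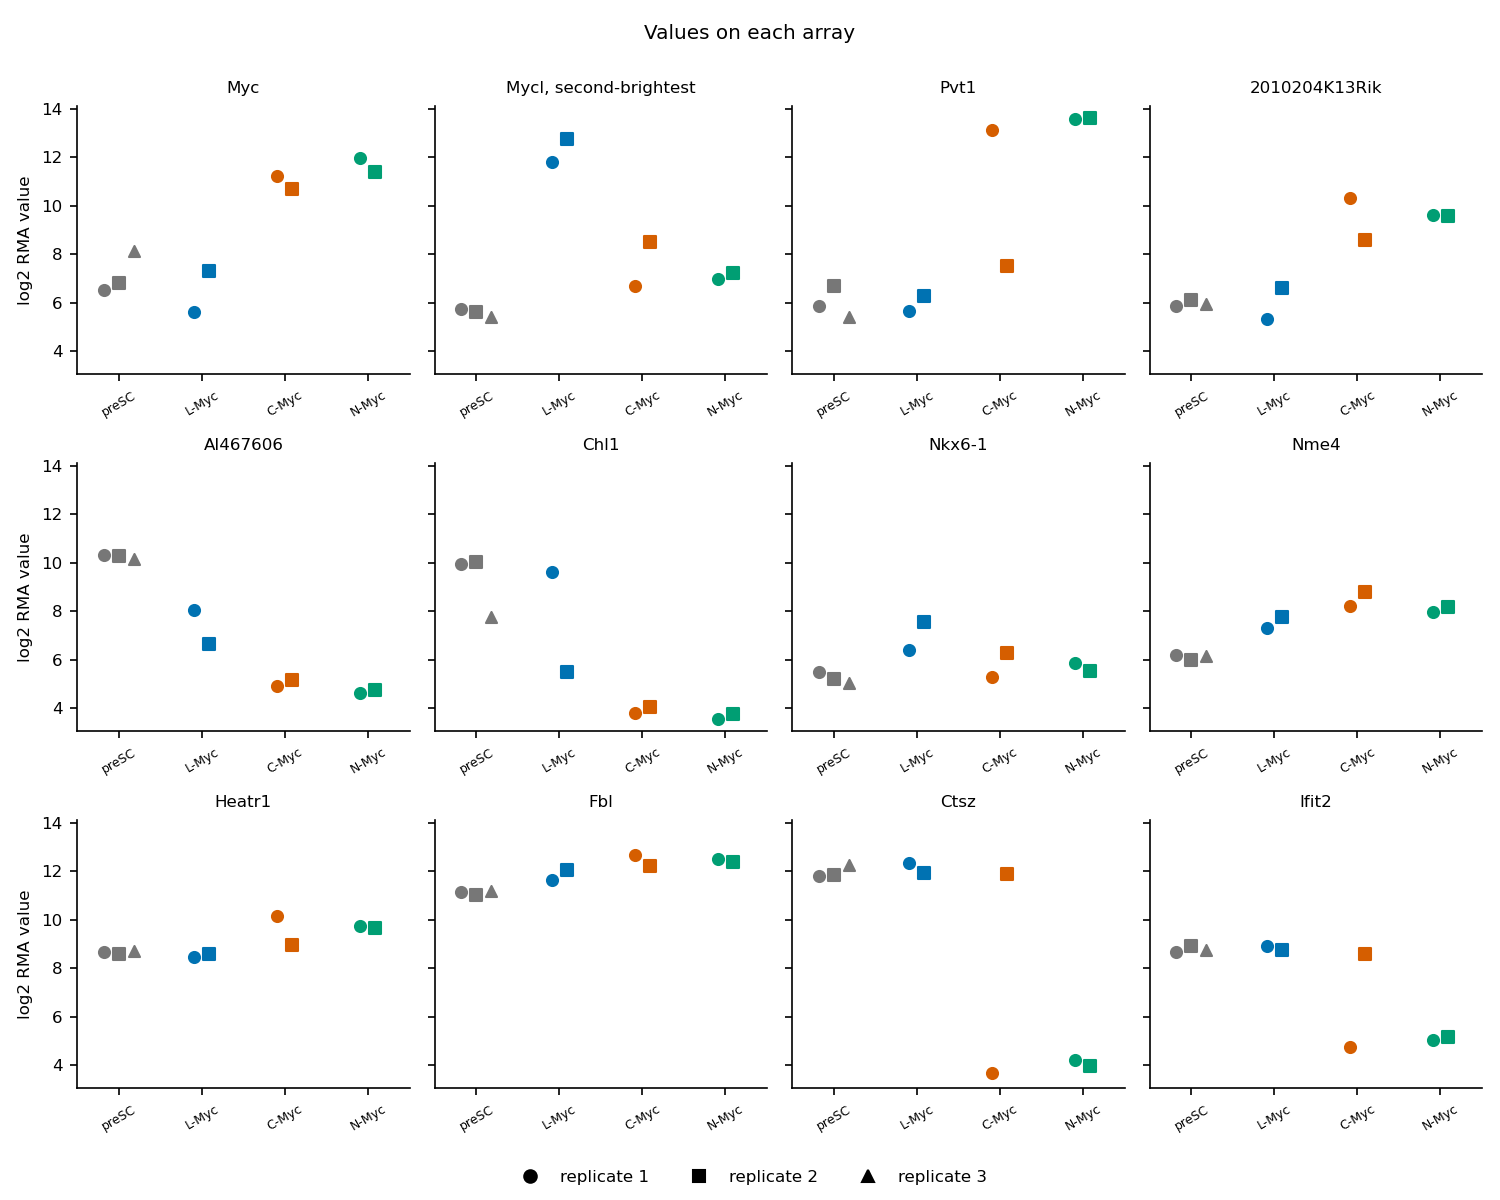
Each panel shows 1 gene with its log2 RMA value on the 9 arrays, by group (preSC grey, L-Myc blue, C-Myc orange, N-Myc green) and replicate number (symbol). Myc, 2010204K13Rik and the second-brightest probe set of Mycl, the 1 of its 3 drawn here, separate L-Myc from C-Myc in both numbers (the groups overlapped on the other Mycl probe sets), while Pvt1, Ctsz and Ifit2 separate C-Myc 1 and the N-Myc arrays from all others.

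On the number 2 arrays alone, again read after the values were seen, 8 genes were lower in L-Myc by at least 2-fold (0.0617%) and 9 higher (0.0694%). Besides Myc, 2010204K13Rik, Pvt1, Ak4 and Nme4, the lower ones were 4930426D05Rik, Rnf144b and the homeobox gene Meox2. Besides Chl1, AI467606 and Nkx6-1, the higher ones were Neurog3, Aldh1a2, Epas1, Clmp, Ltb and Col9a2. Of these 9 others, all but Rnf144b had a difference of the other sign on the number 1 arrays. Neurog3, an endocrine and neuronal lineage factor, was 5.31 on L-Myc 1 and 9.50 on L-Myc 2, against 8.76 and 8.34 in C-Myc. Aldh1a2, which makes retinoic acid, was 6.75 and 10.23 against 8.98 and 9.15, and Meox2 9.82 and 6.91 against 8.05 and 8.02. For each, the L-Myc arrays lay on either side of the C-Myc arrays.

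On the number 1 arrays, 901 genes were at least 2-fold higher in L-Myc 1 (6.94%) and 636 lower (4.9%). Those named here were chosen after their values were seen. Among the largest were genes at which C-Myc 1 and the N-Myc arrays stood alone. Ctsz, which encodes the lysosomal protease cathepsin Z, read 12.34 and 11.94 in L-Myc, 3.69 on C-Myc 1 and 11.90 on C-Myc 2. The N-Myc arrays read 4.20 and 3.97, and all 3 preSC arrays were between 11.81 and 12.27. Phtf2, Plscr4, Lrrn1, Klhl22 and Alcam, a cell adhesion molecule, had the same arrangement, with C-Myc 1 between 3.62 and 4.91 and C-Myc 2 between 8.59 and 10.52. Klhl41, a muscle kelch protein, was the reverse, at 5.02 and 5.13 in L-Myc, 10.33 on C-Myc 1, 5.08 on C-Myc 2 and 9.86 and 9.97 in N-Myc. Other genes were set apart by L-Myc 1: Hs6st2, a heparan sulfate sulfotransferase, read 4.22 on L-Myc 1 against 8.06, 10.24 and 8.65 on L-Myc 2, C-Myc 1 and C-Myc 2.

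Serpinb12 and Ifitm3 were much lower on L-Myc 1 than on the other L-Myc and C-Myc arrays. At Ifitm3 L-Myc 1 was close to preSC 1 and 2, and at Serpinb12 it lay between these and preSC 3. Serpinb12, a serine protease inhibitor, was 6.66 on L-Myc 1, 12.09 on L-Myc 2 and 11.46 and 12.26 in C-Myc, with preSC 1, 2 and 3 at 4.84, 5.05 and 8.54. Ifitm3, an interferon-inducible membrane protein, was 4.07 on L-Myc 1 and 8.29 to 9.75 on the other 3, with preSC at 3.99, 4.33 and 9.79.

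Gene groups were then read from 29 lists. No listed gene passed the test in either direction, against 0.0% of all genes, so each list is given by its median and by counts. The same values over all genes tested serve as the background: a median difference of 0.00, with 24.2% of genes lower and 26.5% higher in L-Myc in both numbers, and 13.1% lower and 13.0% higher without overlap of the arrays. The median absolute difference on the number 2 arrays was 0.11, so either count can turn on the sign of a small number 2 difference.

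Genes of ribosome biogenesis, a process that MYC proteins are known to drive, were the largest growth list and gave lower medians in L-Myc on the number 1 arrays only. Their median difference was -0.45 over 92 genes tested, made of -0.90 on the number 1 and -0.00 on the number 2 arrays. Lower in L-Myc were 88 of the 92 on the number 1 arrays and 46 on the number 2 arrays, which thus gave no direction. In both numbers 46 of the 92 (50.0%) were lower in L-Myc and 4 higher, and 35 (38.0%) were lower without overlap and 0 higher. Those counts rest on the number 1 arrays and on the sign of small number 2 differences, and are not agreement of 2 pairs. On the number 1 arrays 35 were at least 2-fold lower, on the number 2 arrays 0. Measured as the median over the list of each array minus the preSC mean, the list stood at 0.32 on L-Myc 1, 0.64 on L-Myc 2, 1.20 on C-Myc 1 and 0.61 on C-Myc 2, with N-Myc at 0.88 and 0.89. All 4 arrays were thus above preSC, L-Myc 2 and C-Myc 2 at one level, L-Myc 1 below it and C-Myc 1 above it. Without C-Myc 1 the list's median was -0.14, and without C-Myc 2 it was -0.75.

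Heatr1, a processome component that RNA polymerase I transcription needs, read 8.46 and 8.57 in L-Myc and 10.17 and 8.96 in C-Myc. The nucleolar proteins Fbl, the methyltransferase of box C/D complexes, Ncl and Npm1 read 11.66 and 12.05, 12.91 and 12.93, and 13.11 and 12.67 in L-Myc. In C-Myc they read 12.66 and 12.21, 13.63 and 13.03, and 13.70 and 12.67. For Heatr1, Fbl and Ncl both L-Myc arrays were below both C-Myc arrays, although the number 2 differences were only -0.39, -0.16 and -0.10. Noc2l, a ribosome assembly factor, read 7.27 and 7.68 against 9.82 and 7.18, so that C-Myc 1 was high and C-Myc 2 lowest.

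RNA polymerase I and III genes, which make ribosomal and transfer RNA, gave a median of -0.24 over 30 genes, from -0.50 and -0.02. Of these, 13 (43.3%) were lower and 2 (6.67%) higher without overlap, against 13.1% and 13.0% of all genes. On the number 1 arrays 26 of the 30 were lower in L-Myc, and on the number 2 arrays 16. Polr3g, a subunit of RNA polymerase III, read 5.33 and 6.01 in L-Myc and 7.80 and 6.50 in C-Myc. Polr1e read 6.82 and 7.76 against 9.22 and 8.09, and Polr1b, the second-largest subunit of RNA polymerase I, 7.15 and 7.20 against 8.62 and 7.20. At Polr1b 3 arrays stood at one level and C-Myc 1 above them, whereas at Polr3g and Polr1e L-Myc 1 was also below the number 2 arrays. Against preSC the list's median was 0.08 on L-Myc 1, 0.25 on L-Myc 2, 0.68 on C-Myc 1 and 0.24 on C-Myc 2.

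Translation factors had a median of -0.17 over 36 genes (-0.38 and -0.00 by number), with Eif1a as the member that differed in both numbers. Eif5b, which joins the ribosomal subunits, read 9.04 and 9.14 in L-Myc and 10.12 and 9.15 in C-Myc. Genes of nucleotide and one-carbon synthesis had a median of -0.21 over 34 (-0.39 and 0.00). Dctd, dCMP deaminase, read 4.19 and 5.45 against 7.84 and 5.79, and Shmt1, which feeds one-carbon units from serine, 8.59 and 9.13 against 10.56 and 9.39. In glycolysis and lactate genes the median was -0.17 over 25 (-0.40 and -0.03). Aldoa, an aldolase, read 10.42 and 10.46 against 12.39 and 10.60, and Hk2, a hexokinase, 5.02 and 5.25 against 6.78 and 5.58. In each of these examples C-Myc 1 was the highest of the 4 and C-Myc 2 the second highest. The naming rule chose the examples, and they do not stand for their lists. Both L-Myc arrays lay below both C-Myc arrays at 11 of the 36 translation factors. The same held at 7 of the 34 nucleotide and one-carbon genes and 5 of the 25 glycolysis and lactate genes, against 13.1% of all genes.

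Cholesterol synthesis genes had a median of -0.11 over 20 genes, but their number 2 median had the other sign (-0.30 and 0.07). Idi1 read 10.65 and 10.78 in L-Myc and 11.51 and 10.86 in C-Myc, and Tm7sf2 6.73 and 7.29 against 6.03 and 6.98. Bcat1, the cytosolic enzyme that transfers amino groups from branched-chain amino acids, read 9.12 and 9.12 in L-Myc and 10.34 and 8.92 in C-Myc, after 3.79 to 5.33 in preSC. L-Myc and C-Myc cells thus both had Bcat1 at values well above preSC, with no separation between them.

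**Figure D4:**
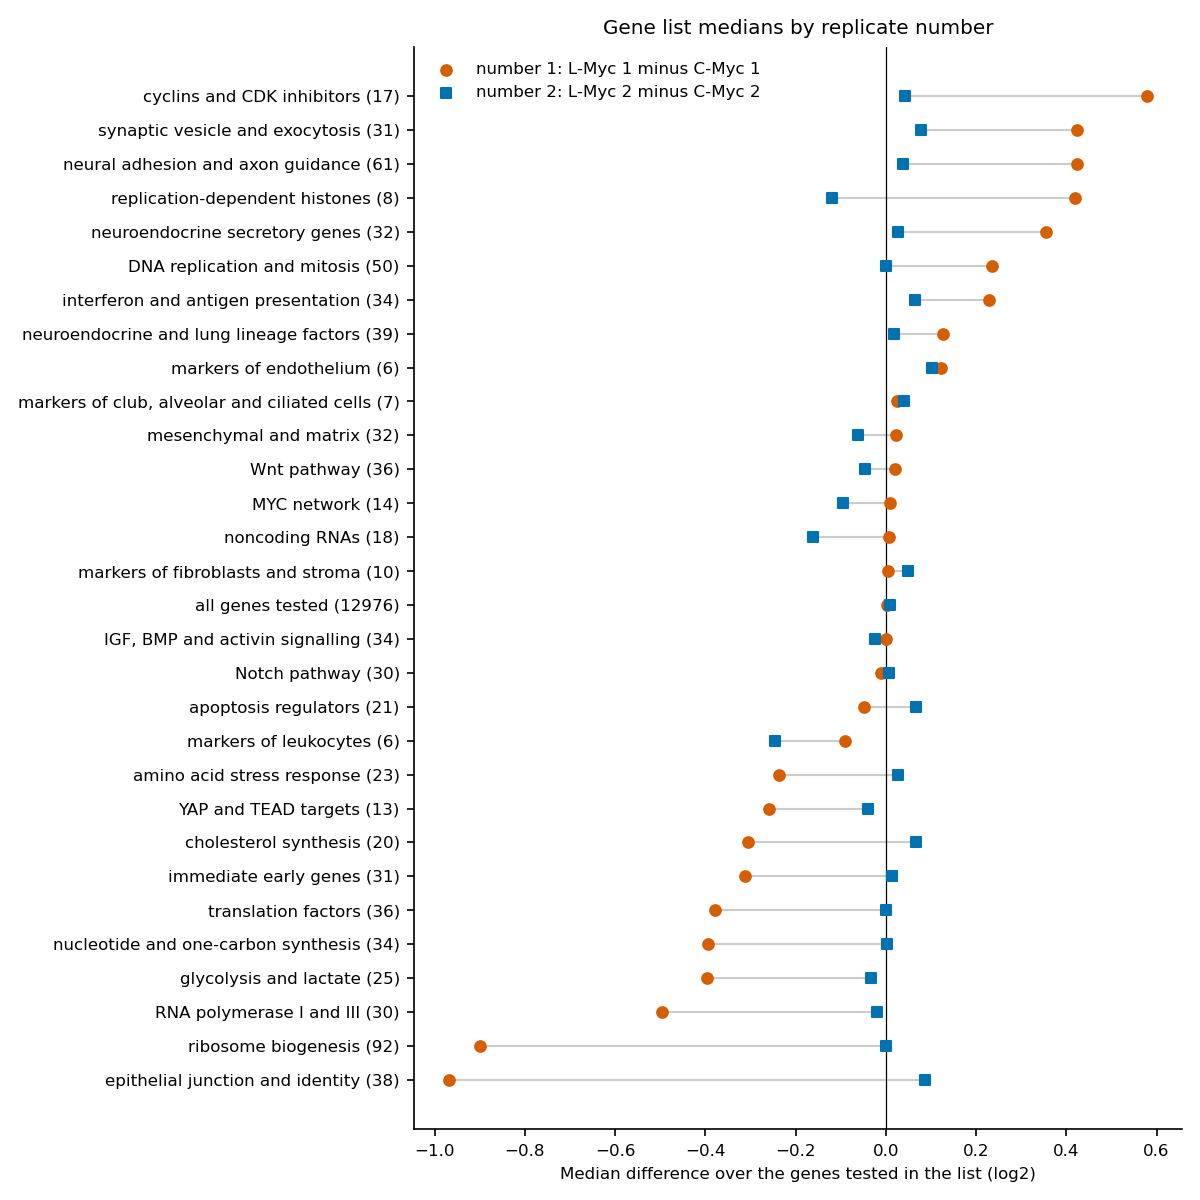
For each gene list (number of genes tested in brackets), the median of L-Myc 1 minus C-Myc 1 is an orange circle and that of L-Myc 2 minus C-Myc 2 a blue square, both in log2 units. Circles run from -0.97 to 0.58, whereas squares stay between -0.25 and 0.10.

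DNA replication and mitosis genes were close in level, with a median of 0.10 over 50 (0.23 and 0.00), 20 higher in both numbers and 8 lower. E2f2, an S-phase transcription factor, read 10.07 and 9.97 in L-Myc and 8.71 and 9.89 in C-Myc, and Ccnb2, a mitotic cyclin, 11.82 and 11.57 against 10.02 and 11.71. Among 17 cyclins and inhibitors of cyclin-dependent kinases the median was 0.02 (0.58 and 0.04). Cdkn1a, the inhibitor p21, read 11.52 and 10.58 in L-Myc, 8.97 and 10.19 in C-Myc and 12.14, 12.05 and 11.001 on preSC 1, 2 and 3. L-Myc was higher than C-Myc by 1.47 (SE 0.53) without overlap, and preSC 3 lay between the L-Myc arrays. Cdkn1c, the inhibitor p57, read 8.67 and 10.03 against 7.15 and 9.77. Of 55 listed replication-dependent histone genes only 10 had a probe set with 1 gene, too few to describe the class. H2bc21, a histone H2B gene, read 9.44 and 9.33 against 6.73 and 9.38, and H3c4 5.60 and 5.85 against 5.03 and 5.79.

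Of the 34 neuroendocrine secretory genes with a probe set, 28 lay above the 40th percentile of the array (5.28 to 5.34) on both L-Myc arrays and 29 on both C-Myc arrays. Over all genes, 12976 of 18193 lay above it on at least 2 of the 9 arrays, a looser condition. The percentile is not a detection call. For the secretory genes only the values are given. The median difference of the secretory genes was 0.25 over 32 genes tested (0.35 and 0.03), with 12 higher and 5 lower in both numbers. Chga, a granin of dense-core granules, read 10.21 and 10.15 in L-Myc and 9.43 and 9.96 in C-Myc, below preSC at 10.86 to 11.33. Ncam1, an adhesion molecule used to diagnose these tumours, read 10.70 and 9.82 against 9.45 and 9.66. Both were higher in L-Myc without overlap, by 0.48 (SE 0.23) and 0.71 (SE 0.33), and did not pass. Cartpt, a neuropeptide precursor, read 10.25 and 10.42 in L-Myc, 5.92 on C-Myc 1 and 10.57 on C-Myc 2. Vgf, another neuropeptide precursor, ran the other way, at 5.49 and 5.98 in L-Myc and 8.08 and 6.32 in C-Myc.

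Among 39 neuroendocrine and lung lineage factors the median was 0.09 (0.13 and 0.02). Insm1, a zinc finger factor of neuroendocrine cells, read 11.24 and 11.99 in L-Myc and 11.64 and 11.92 in C-Myc. Nkx2-1, the lung lineage factor, read 8.41 and 8.27 against 8.61 and 8.12, and 5.70 to 6.06 in preSC. For Nkx2-1 the interval of the difference ran from -0.54 to 0.51 and for Insm1 from -0.93 to 0.61. Nkx2-1 was thus above preSC on the arrays of both viruses, at levels that overlapped, but preSC also differed from these arrays on the control probe sets. Pou3f4, a neural POU factor, read 8.24 and 7.70 against 5.18 and 7.87. Pou2f3, which marks the tuft-cell-like class of small cell lung cancer, was 6.28 and 6.50 against 6.29 and 6.53, also close to preSC at 6.27 to 6.48.

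Genes of synaptic vesicles and exocytosis had a median of 0.27 over 31 (0.42 and 0.08). Without overlap 11 (35.5%) were higher and 1 (3.23%) lower, against 13.0% and 13.1% of all genes. On the number 1 arrays 10 of the 31 were lower in L-Myc, and on the number 2 arrays 11. Syt13, a synaptotagmin, read 9.08 and 7.97 in L-Myc and 7.26 and 7.62 in C-Myc. Syt4, another, read 6.37 and 9.59 against 8.46 and 9.40, and Syp, the vesicle protein synaptophysin, 8.68 and 8.74 against 8.94 and 8.87. Without L-Myc 2 the median was 0.53 and without C-Myc 1 it was 0.21, so the sign stayed and the size did not.

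Neural adhesion and axon guidance genes had a median of 0.22 over 61 (0.42 and 0.04). Without overlap 15 (24.6%) were higher and 1 (1.64%) lower, against 13.0% and 13.1% of all genes. On the number 1 arrays 21 of the 61 were lower in L-Myc, and on the number 2 arrays 25. Chl1 led the list. Cdh11, a mesenchymal and neural cadherin, was 3.39 on L-Myc 1, where all preSC arrays were also at 3.52 to 3.59, and 6.98 on L-Myc 2, against 6.83 and 7.34 in C-Myc. Against the preSC mean the list's median was -0.06 on L-Myc 1 and between -0.53 and -0.38 on all other transduced arrays. That mean joins unlike arrays, since the list's median level was 8.05, 8.18 and 7.10 on preSC 1, 2 and 3. By level L-Myc 1, at 7.88, was nearer to preSC 1 and 2, and the other transduced arrays, at 6.92 to 7.31, to preSC 3.

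Notch pathway genes, whose activity opposes the neuroendocrine state, had a median of 0.01 over 30 (-0.01 and 0.01). Hes1, the classical target, read 6.44 and 6.86 in L-Myc and 6.44 and 6.73 in C-Myc. Dll3, an inhibitory ligand found on neuroendocrine tumours, read 9.59 and 9.20 against 7.42 and 9.17, with N-Myc at 7.30 and 7.02. Dtx1, a Notch regulator, read 9.41 and 8.50 against 7.29 and 8.55. The interval for Hes1 ran from -0.72 to 0.86, which leaves its direction unsettled.

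**Figure D5:**
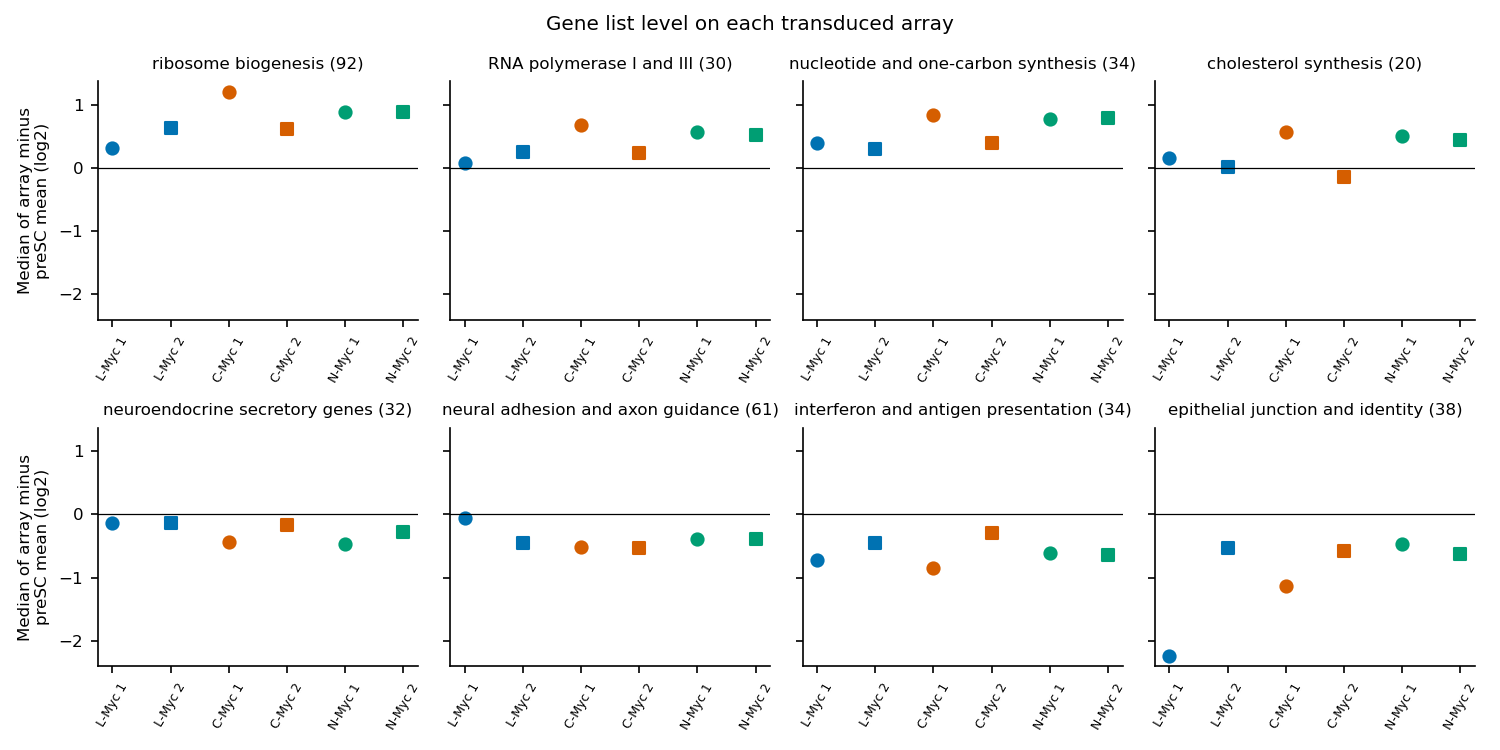
For 8 gene lists (number of genes tested in brackets), each symbol is the median over the list of 1 transduced array minus the preSC mean (log2), blue for L-Myc, orange for C-Myc and green for N-Myc, with circles for replicate 1 and squares for replicate 2. L-Myc 2 and C-Myc 2 lie close together in every panel, and C-Myc 1 lies near or beyond the N-Myc arrays in the metabolic and ribosome panels, at 1.20 for ribosome biogenesis.

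Epithelial junction and identity genes set L-Myc 1 apart. The list's median was -0.53 over 38 genes, from -0.97 on the number 1 and 0.09 on the number 2 arrays. On the number 1 arrays 19 of 38 were at least 2-fold lower in L-Myc and 0 higher, while without overlap 0 were lower and 2 higher. Against preSC the median was -2.24 on L-Myc 1, -0.52 on L-Myc 2, -1.14 on C-Myc 1 and -0.57 on C-Myc 2. Cdh1, E-cadherin, read 9.38 and 11.31 in L-Myc and 10.78 and 11.19 in C-Myc. Dsp, desmoplakin of the desmosome, read 5.18 on L-Myc 1 and 10.06 on L-Myc 2, against 9.15 and 10.13. Marveld3, of the tight junction, read 4.54 and 7.57 against 8.14 and 7.49. Without L-Myc 1 the list's median was 0.33, so its sign rested on that array.

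Mesenchymal and matrix genes had a median of -0.01 over 32, with Thbs1, thrombospondin, at 5.53 and 8.12 against 8.80 and 7.80 and Itga6, a laminin-binding integrin, at 9.33 and 9.79 against 11.16 and 9.57. YAP and TEAD target genes had a median of -0.09 over 13. Yap1, the coactivator lost in neuroendocrine small cell lung cancer, read 5.07 and 5.47 in L-Myc and 6.58 and 5.69 in C-Myc, and F3, tissue factor, 3.81 and 4.72 against 6.23 and 4.53. At Yap1 both L-Myc arrays were the lower, with differences of -1.51 and -0.22.

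Interferon and antigen presentation genes had a median of 0.13 over 34 (0.23 and 0.06), with 16 higher and 7 lower in both numbers. Ifit2, an interferon-induced protein, read 8.92 and 8.73 in L-Myc, 4.73 on C-Myc 1 and 8.57 on C-Myc 2. Psmb8, of the immunoproteasome, read 8.10 and 8.80, then 4.97 and 8.54. At both, the N-Myc arrays were low as well, at 5.03 and 5.17 and at 5.44 and 5.59.

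Immediate early genes had a median of -0.16 over 31. Nr4a2, an orphan nuclear receptor, read 5.97 and 6.04 against 7.50 and 6.11, and Klf2, a Kruppel-like factor, 7.92 and 7.53 against 7.21 and 7.13. For amino acid stress genes the median was -0.06 over 23, with Vldlr at 8.92 and 5.13 against 6.06 and 5.74 and Cth at 5.13 and 6.03 against 6.76 and 6.23. Apoptosis regulators stood at 0.03 over 21, with Casp8 at 5.61 and 9.20 against 7.99 and 8.98 and Bak1 at 6.55 and 6.09 against 7.82 and 6.03. In Vldlr and Casp8 the L-Myc arrays were farther from each other than from either C-Myc array.

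Genes of IGF, BMP and activin signalling had a median of -0.02 over 34. Igfbp2, which binds insulin-like growth factors, read 4.67 on L-Myc 1 and 9.17 on L-Myc 2, against 7.95 and 8.89 in C-Myc, and Igf2 8.19 and 10.47 against 11.73 and 10.17. Wnt pathway genes had a median of 0.01 over 36, with the receptor gene Fzd1 at 8.28 and 6.10 against 5.57 and 6.61 and Wnt9a at 6.16 and 5.91 against 4.92 and 5.91. Among 18 noncoding RNA genes the median was -0.09, with Neat1, the scaffold of paraspeckles, at 8.66 and 8.99 against 5.57 and 9.09. The 14 genes of the MYC network had a median of -0.01, and Mlxipl, a glucose-responsive member, read 7.15 and 8.21 against 5.30 and 7.78.

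Markers of other cell types, listed for cells that a lung culture could hold, were at low levels. The array medians of the fibroblast, endothelial, leukocyte and club, alveolar and ciliated lists lay between 4.84 and 5.37 on the 4 arrays, at or below the 40th percentile of the array or just above it. Of those lists, 10, 6, 6 and 7 genes could be tested, and their median differences were 0.16, 0.03, -0.18 and 0.10. On the L-Myc arrays 4 of 17 fibroblast, 6 of 12 endothelial, 5 of 15 leukocyte and 5 of 17 club, alveolar and ciliated markers with a probe set lay above that percentile, and on the C-Myc arrays 5, 6, 5 and 6. The summed log2 levels of the 4 lists were 92.9, 62.9 to 64.5, 80.0 to 84.8 and 89.1 to 91.6 on the L-Myc arrays. On the C-Myc arrays they were 88.1 to 93.1, 62.3 to 63.7, 80.6 to 85.3 and 89.8 to 94.1, so the groups overlapped in every list. A few single markers nevertheless differed widely between arrays. Lyz2, lysozyme, read 10.99 and 6.44 in L-Myc and 12.31 and 6.76 in C-Myc, and Sftpc, surfactant protein C, 7.77 and 6.43 against 10.68 and 6.17, with N-Myc at 10.59 and 11.10. Fbln1, a matrix protein, read 9.33 and 6.89 against 6.47 and 6.84, Thy1 6.13 and 4.22 against 5.04 and 4.17, and Vwf 6.95 and 8.14 against 7.55 and 8.13. Coro1a, an actin regulator of leukocytes, was high throughout at 10.08 and 10.18 against 9.74 and 9.91, while Erg read 6.16 and 6.40 against 6.03 and 5.77 and Aqp5 5.57 and 5.27 against 6.19 and 5.58. The part of other cells in any difference above was not tested. In such bulk samples a smaller number of cells of a type cannot be told apart from less RNA per cell.

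The control probe sets bear on the molecule field. The 18S ribosomal RNA probe sets averaged 8.22 and 9.35 on the L-Myc arrays with both C-Myc arrays between these values, while preSC, which shares the polyA label with L-Myc, read 12.88 to 13.91. The 5′ minus 3′ difference of Actb, a measure of RNA integrity and labelling, was -0.22 and -0.26 in L-Myc and -0.29 and -0.31 in C-Myc, against -0.85 to -0.62 in preSC. For the Thr spike-in it was -1.61 and -1.55 against -1.39 and -1.38, and -3.17 to -2.59 in preSC. By these probe sets the L-Myc arrays lay beside the C-Myc arrays, from which the molecule field separates them, and away from the preSC arrays, with which it groups them. The Dap spike-in likewise read -3.66 to -3.40 in preSC and -1.68 to -1.51 on the transduced arrays. Spike-ins do not come from the cells, so the values given above against preSC carry a difference in labelling as well.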

How the data were processed

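RNA of 9 mouse cell samples was measured on Affymetrix arrays, and 4 of these arrays are compared here. The deposited table holds log2 values per probe set, which the authors obtained by RMA (affy under R 3.0.1), per the submitters' processing notes. RMA subtracts background, equalises the distributions of the arrays and summarises the probes of a set. A shift shared by all transcripts is therefore removed, and the differences of dim probe sets come out too small. No version of affy is given there. Array medians lay between 6.02 and 6.07, and no further scaling was applied. The number of arrays limits the precision.

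Of 45101 probe sets, 34945 had 1 gene symbol in a platform annotation, 932 had several, 9160 were not listed and 64 were controls. Entrez identifiers of 34754 matched a RefSeq gene table (GRCm38.p6), with 0 symbols changed. Each of 18193 genes was represented by its probe set of highest mean (9 arrays). The 12976 genes above the 40th percentile of the array in at least 2 arrays were tested. The percentile was taken over all probe sets and lay between 5.28 and 5.34. Means of the 4 groups were fitted to all 9 arrays with limma 3.58.1 (lmFit, eBayes, R 4.3.3), two-sided, and p-values were adjusted by Benjamini-Hochberg over all tested genes, with calls at 0.05. The fit has 5 residual degrees of freedom. SE and 95% intervals are those of this fit. The scripts were tested on simulated data.

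The comparison, the 29 gene lists and the genes to name were chosen with earlier results of these data known, so no list is independent evidence of its direction. The naming rule takes the MYC genes with Pvt1, Max, Rb1 and Rbl2, the largest differences past the threshold (there were none), up to 2 genes of any list with no call, and some fixed neuroendocrine, nucleolar and other genes. Genes named outside it are said to be chosen after their values were seen. Some of the fixed genes were not analysed here. Alternatives changed the arrays in the fit, the probe set per gene, the filter, the scaling, the variance model and the replicate number as a block, and left out each array in turn. Promoter sequences are RefSeq's, matched by symbol.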

Additional observations from a re-analysis of the deposited data

Results flagged for a closer look

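Probe sets given no gene stayed outside the comparison of genes. Of 4896 such probe sets that passed the same filter on low values, 402 were at least 2-fold apart on the number 1 arrays and 6 on the number 2 arrays. In both numbers 2 were at least 2-fold higher in L-Myc and 1 lower. At 2 of the 4896, both L-Myc arrays lay at least 2-fold above every C-Myc and preSC array. Probe set 1429906_at read 7.41 and 7.44 in L-Myc and 3.75 and 5.90 in C-Myc, and the lower L-Myc array was 1.51 above the highest C-Myc or preSC array. Probe set 1460101_at read 7.62 and 7.41 against 4.22 and 5.98, with a gap of 1.42. On both, C-Myc 2 lay between the L-Myc arrays and C-Myc 1, and the N-Myc arrays were at most 4.53. These 2 were picked for their values and were not tested.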

How the results depend on the processing

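No gene passed the limma test in any setting that kept all 4 arrays, with the number at an unadjusted p under 0.05 running from 60, in a fit of these 4 arrays alone, to 811, with no filter on low values. With 1 array left out the count of genes ran from 0 to 625, of those higher in L-Myc from 0 to 360 and of those lower from 0 to 265, and without L-Myc 2 it was 2, 1 in each direction, with the single array left in a group assumed to vary like the other groups. With the replicate number as a block 0 genes passed and 539 had an unadjusted p under 0.05, and the block changed no call. Deviations of the number 1 arrays from their group means correlated over 12976 genes at r = 0.44 between L-Myc and C-Myc and at 0.14 between N-Myc and either, which the labels do not describe as a pairing. With 2 arrays in a group such a deviation also contains the number 2 array, and L-Myc 2 and C-Myc 2 were close to each other. The r thus does not show that L-Myc 1 and C-Myc 1 moved together. In 2 settings chosen after seeing the data, the 4 arrays with the block and all arrays without preSC, 0 genes passed and 152 and 267 had an unadjusted p under 0.05. The second-brightest probe set, available for 6384 tested genes, gave 671 genes 2-fold apart in number 1, 10 in number 2 and 19 at 1.5-fold in both, the last against 29 with the mean of probe sets and 47 as reported. It turned the sign of Mycn (1.25), Erg (-0.15), Fbln1 (-0.093), Neat1 (-0.13), Ppp3cc (-0.14) and Rnf144b (0.10), and the mean of probe sets that of Mycn (0.47) and Epas1 (-0.10). Of 110 named genes, 42 changed sign when 1 of the 4 arrays was left out, and the cause was not tested. Over the 4 omissions the difference of L-Myc and C-Myc ranged as follows for 4930426D05Rik (-2.06 to 1.32), Alcam (-0.49 to 5.13), Aldh1a2 (-2.32 to 1.17), Bak1 (-1.50 to 0.29), Bcat1 (-1.22 to 0.20), Cartpt (-0.23 to 4.41), Casp8 (-2.87 to 0.71), Ccnb2 (-0.011 to 1.67), Cdh1 (-1.60 to 0.33), Cdkn1c (-0.42 to 2.20), Clmp (-0.68 to 1.22), Col9a2 (-0.68 to 1.86), Dsp (-4.45 to 0.42), Epas1 (-0.48 to 0.60). The ranges were H3c4 (-0.066 to 0.69), Hes1 (-0.14 to 0.28), Ifitm3 (-4.83 to 0.84), Igfbp2 (-3.75 to 0.75), Insm1 (-0.54 to 0.21), Klhl22 (-0.0093 to 4.67), Lrrn1 (-0.083 to 4.64), Ltb (-0.085 to 1.09), Lyz2 (-3.60 to 1.96), Meox2 (-1.12 to 1.79), Mlxipl (-0.094 to 2.39), Mycl (-0.25 to 1.13), Mycn (-0.42 to 0.041), Neat1 (-0.26 to 3.26). For the rest they were Neurog3 (-3.24 to 0.95), Nkx2-1 (-0.26 to 0.23), Noc2l (-2.34 to 0.30), Npm1 (-0.81 to 0.22), Pou2f3 (-0.14 to 0.096), Psmb8 (-0.091 to 3.48), Rnf144b (-1.50 to 0.40), Serpinb12 (-5.20 to 0.23), Sftpc (-3.58 to 0.93), Syt4 (-2.56 to 0.66), Thy1 (-0.39 to 1.52), Utp18 (-0.76 to 0.029), Vldlr (-0.77 to 3.02), Vwf (-0.89 to 0.30). In 65 of the 110 the sign was the same in every setting run. Of 435 pairs of a list median and a setting, 34 moved by more than the SD between replicates. With 2 arrays a group and single arrays this far apart, the fit resolves few differences.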
